A study of Aspergillus niger with 11 samples.

Results

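This account covers 59 of 10445 genes of Aspergillus niger whose transcript level was at least 2-fold above that of the exponential phase at each of 3 later times of an oxygen-limited culture. The genes were chosen from measured values. With 10 FPKM added to every group mean, the ratios of 24 h, 42 h and 66 h to 18 h each had to reach 2, the largest group mean had to reach 100 FPKM, and every 24 h library had to lie above every 18 h library. Of 1844 genes with a group mean of at least 100 FPKM, 111 met the 3 ratios and 309 the condition on single libraries. All differences from 18 h are therefore descriptions with no test. Only differences among 24, 42 and 66 h were tested, since the rule sets a floor for each of these means but no order among them. Values at all of these times still took part in the choice. With a floor under each later mean, falls after 24 h had less room than rises.

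RNA was sequenced from 11 libraries of strain DS03043, a filamentous fungus kept as a fed-batch culture (nutrient added during growth) in a 5 L stirred fermenter at 34 °C and pH 4.5. All libraries came from this oxygen-limited process. They are 3 from the exponential phase (18 h), 3 from the early limited or transitional phase (24 h), 3 from the middle limited phase (42 h) and 2 from the late limited phase (66 h). The sampling hours are listed once for all samples and were assigned to the phases from earliest to latest. No culture held free of oxygen limitation was among the libraries, so that oxygen supply, culture age and growth phase cannot be told apart, and nothing says that replicates were separate cultures, so p-values cover only the variation among these samples, possibly technical. In bulk RNA, more transcript per hypha and more hyphae that hold it cannot be told apart either.

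Oxygen is the terminal electron acceptor of respiration in filamentous fungi, and it is a substrate for the synthesis of sterols and unsaturated fatty acids. In a dense stirred culture its supply can fall behind the demand of the growing mycelium. In the related mould Aspergillus fumigatus, the sterol regulatory element-binding protein SrbA is needed for growth at low oxygen and acts through changes in transcript levels. Genes that differ from the first sampled limited time onward are the transcripts followed here.

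None of the 59 genes carries a symbol in the RefSeq gene table of assembly ASM285v2, against 102 (0.98%) of the 10445 genes, although all 59 were found in it. They are named by locus, and no function is given for them. Depth limited what could be seen for many of them. The low FPKM values (fragments per transcript length and sequencing depth) were whole multiples of the value of 1 read, from which the reads behind 49 members could be recovered. A median member of these rested on 6 reads over the 3 libraries at 18 h, 20 reads at 24 h, 51 reads at 42 h and 38 reads over the 2 libraries of 66 h, and 33 of the 49 had 10 or fewer reads at 18 h. An07g05770 and An12g00695 are counted among the 49, but several of their values were not whole multiples, so their reads are not stated. Relative to the shallowest library, depth was at most 1.21 at 18 h, at most 1.11 at 24 h, 1.38 to 1.43 at 42 h, and 1.51 to 1.59 at 66 h. The summed FPKM of a library was 968822 to 1100826.

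Together the 59 genes took up a growing part of the transcript pool. They held 0.62%, 0.68% and 0.56% of the summed FPKM in the 18 h libraries, 2.33%, 1.68% and 1.67% at 24 h, 4.32%, 4.19% and 4.39% at 42 h, and 4.61% and 4.52% at 66 h. Much of this came from a pair of loci, An07g05770 and An11g03350. Without them the remaining genes held 0.40% to 0.46% at 18 h, 1.25% to 1.44% at 24 h, then 2.37% to 2.39% at 42 h and finally 2.18% to 2.29% at 66 h. In both sums the 42 h and 66 h libraries lay close together, and the 24 h libraries lay between them and the 18 h libraries, with replicate 1 the highest of the 24 h libraries.

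**Figure D1:**
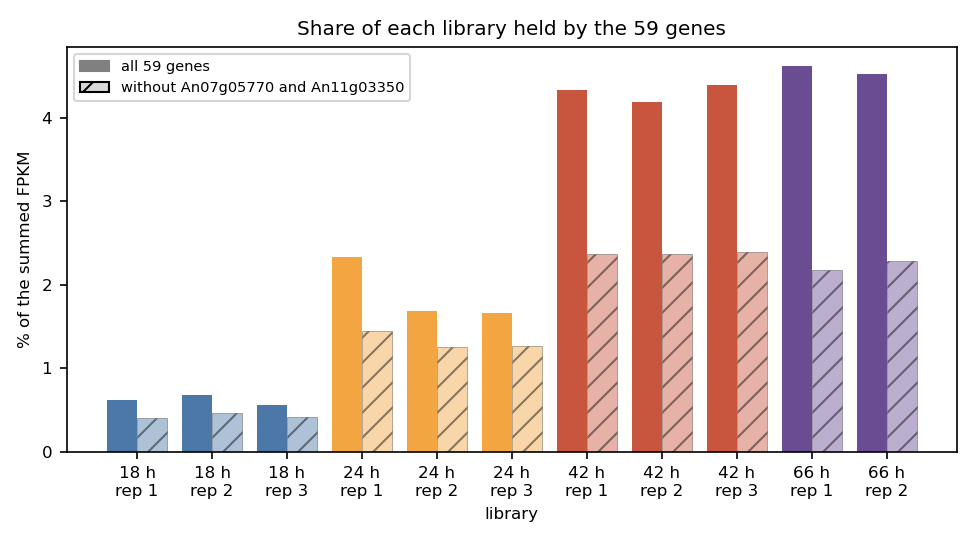
Percentage of each library's summed FPKM (y axis) held by all 59 genes (solid bars) and by the genes without An07g05770 and An11g03350 (hatched bars), for the 11 libraries in order of time (x axis). The solid bars stand at 0.56% to 0.68% at 18 h and at 4.19% to 4.61% at 42 and 66 h, and 24 h replicate 1 is at 2.33% against 1.68% and 1.67% in the other 24 h libraries.

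The ratio to 18 h, with 10 added, had a median of 2.72 at 24 h (2.01 to 22.5), of 5.39 at 42 h (2.02 to 40.8) and of 5.75 at 66 h (2.02 to 31.7). By 24 h a median member had reached 50.2% of the difference between its 42 h and 18 h means, with quartiles of 24.9% and 73.2%. For 29 members it was under 50%, and for 8 it was over 100%, their 24 h mean being above that of 42 h. The largest group mean fell at 24 h in 7 members, at 42 h in 26 and at 66 h in 26. By the rule all 59 genes were above 18 h at 24 h. After 24 h they ran through several courses, from a level near the final one at 24 h to one far below it.

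**Figure D2:**
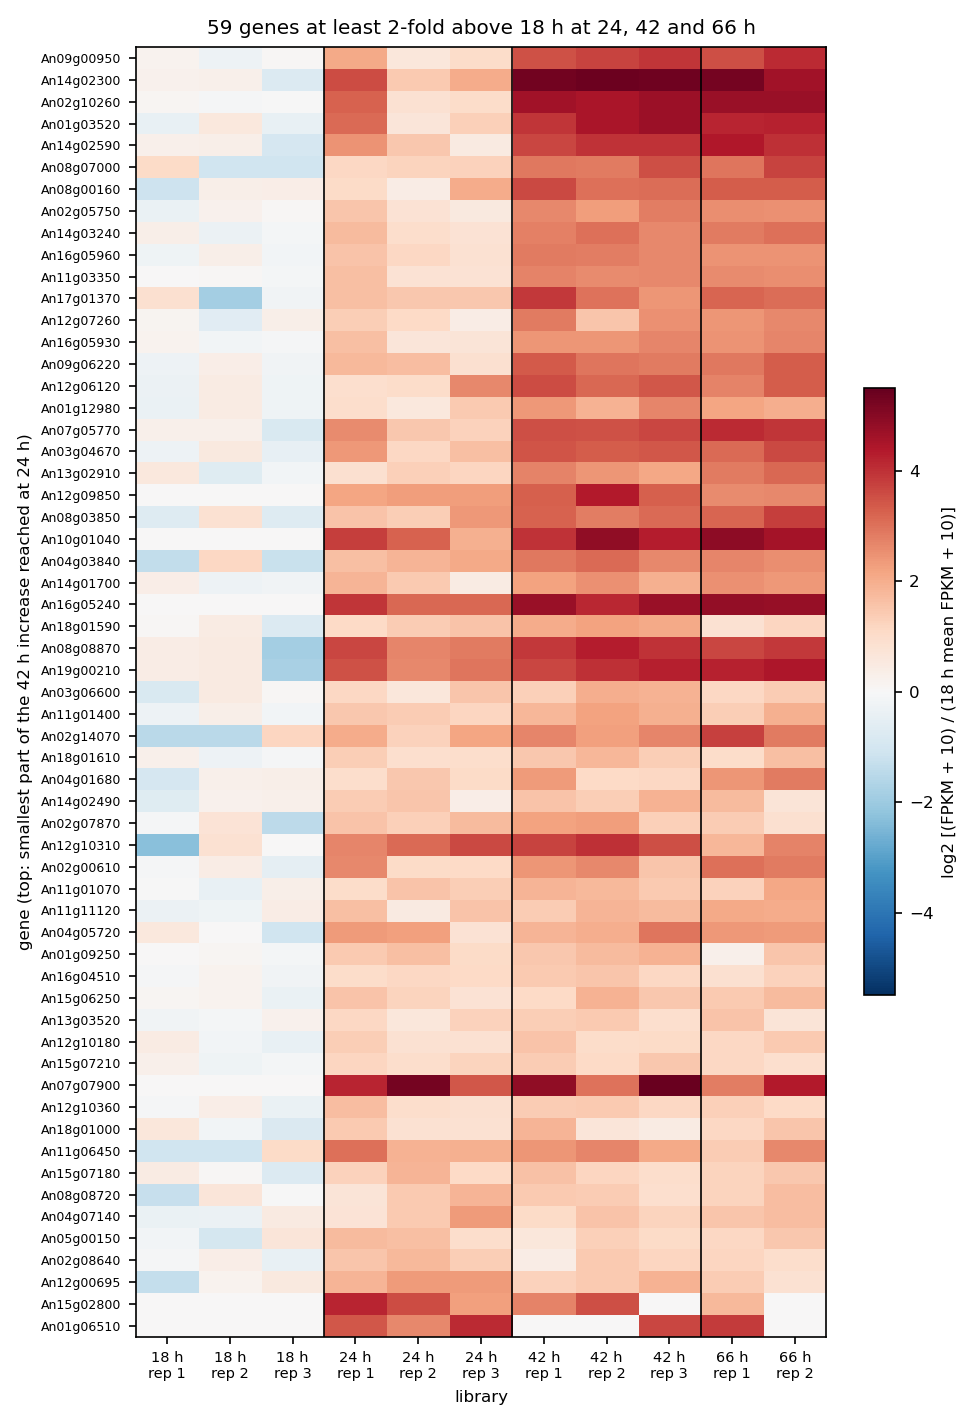
Log2 ratio of each library's FPKM plus 10 to the 18 h mean plus 10 (colour) for the 59 genes (rows, ordered by the part of the 42 h increase reached at 24 h, lowest at the top) in the 11 libraries (columns). Rows at the top are pale at 24 h and dark at 42 and 66 h, beginning with An09g00950 at 12.7%, and rows at the bottom are as dark at 24 h as later or darker, ending with An01g06510 at 265%.

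Levels ranged widely. The largest group mean ran from 100.05 FPKM to 15333 FPKM with a median of 271.5, and was under 300 FPKM in 32 members. An07g05770 was the most abundant. It had 1143, 1133 and 523 FPKM at 18 h, 5792, 2627 and 2264 FPKM at 24 h, 11105, 10635 and 11915 FPKM at 42 h, and 16214 and 14452 FPKM at 66 h. The number of reads behind these values is not known, since the read value found for this gene was checked on its lowest library alone. Groups of successive times did not overlap. An07g05770 was the only 1 of the 10 most abundant members apart from An02g10260 in which both 66 h libraries lay above all 42 h libraries. An11g03350 had 1239, 1252 and 1136 FPKM at 18 h, 3776, 2111 and 2117 FPKM at 24 h, 7950, 7277 and 7673 FPKM at 42 h, and 7382 and 7199 FPKM at 66 h. Its 42 and 66 h libraries overlapped and stood above all those of 24 h.

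An12g00695 followed another course, with 211, 618 and 786 FPKM at 18 h, 1975, 2805 and 2811 FPKM at 24 h, 1311, 1462 and 2045 FPKM at 42 h, and 1446 and 962 FPKM at 66 h. Both 66 h libraries lay below all 24 h libraries and above all 18 h libraries. How many reads lay behind these values is not known, since several were not whole multiples of the read value found for it. Against 24 h its log2 fold change was -0.66 at 42 h (SE 0.41) and -1.08 at 66 h (SE 0.46), neither called (adjusted p = 0.468 and 0.242 by limma). An16g04510 and An15g07210 stayed near their 24 h level. An16g04510 averaged 809 ± 114 FPKM at 18 h, 1729 ± 89.9 at 24 h, then 2106 ± 280 at 42 h (SD, n = 3 each) and finally 1734 ± 306 at 66 h (n = 2). An15g07210 averaged 604 ± 118 FPKM at 18 h, 1348 ± 125 at 24 h, then 1533 ± 198 at 42 h and finally 1246 ± 108 at 66 h. For both genes the 24, 42 and 66 h libraries overlapped, and no 18 h library reached any of them.

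**Figure D3:**
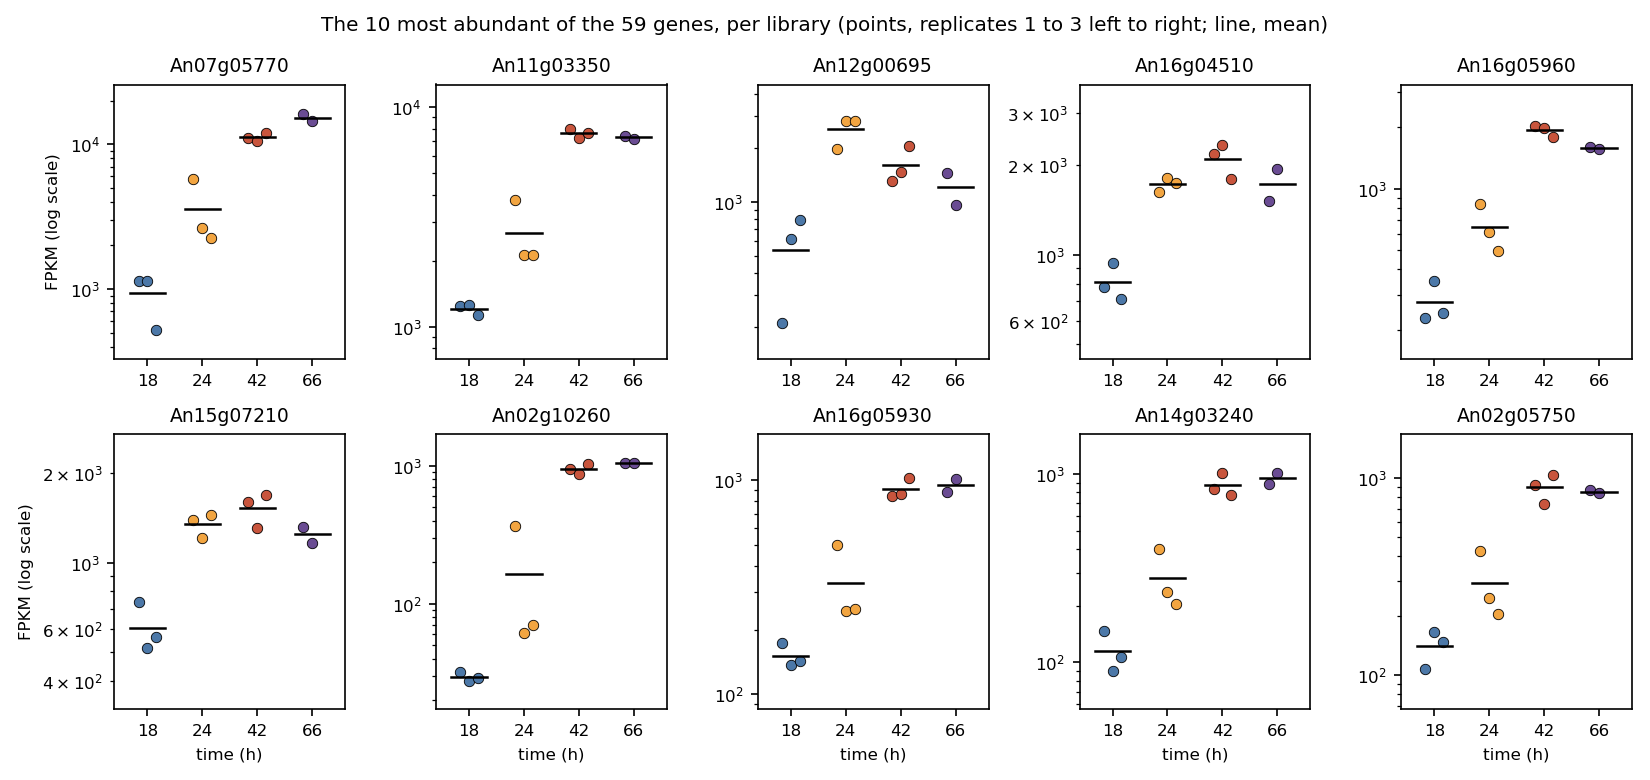
FPKM on a log axis (y) of the 10 members with the largest group mean, in each library (points, replicates from left to right) at 18, 24, 42 and 66 h (x), with the group mean as a line. In An07g05770, An11g03350, An02g10260, An16g05930, An14g03240, An02g05750 and An16g05960 24 h replicate 1 is the highest 24 h point, in An12g00695 and An16g04510 it is the lowest, and in An15g07210 it lies between the others.

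Between 24 and 42 h, 10 of the 59 genes rose and 0 fell by limma's test on log2(FPKM + 1), at a Benjamini-Hochberg adjusted p under 0.05 over 8693 genes. Of all genes tested 1.86% rose and 2.8% fell, and of the 1844 genes with a group mean of at least 100 FPKM, the level that members had to reach, 7% rose and 11% fell. At an unadjusted p under 0.05, 23 members were higher and 0 lower, against 7.87% and 9.17% of all genes tested and 19.3% and 25.1% of those 1844 genes. The fold change was positive in 50 members and negative in 9 (47.1% and 52.9% of the 1844 genes), with a median log2 fold change of 0.78, against -0.10 over the 1844 genes and -0.01 over all genes tested. Every 42 h library lay above every 24 h library in 31 members and below in 0, against 8.21% and 11.4% of all genes tested and 20.7% and 27.4% of the 1844 genes. The choice of members by values at 42 h above 18 h bears on these counts.

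The steepest of the called rises were in An02g10260, An09g00950, An14g02590 and An07g05770. An02g10260 had 32.1, 27.5 and 28.9 FPKM at 18 h, 364, 61.0 and 70.0 FPKM at 24 h, and 950, 875 and 1022 FPKM at 42 h. Replicates 2 and 3 of 24 h thus stood near the 18 h libraries and replicate 1 partway to 42 h. The log2 difference between 42 h and 24 h was 3.02 (SE 0.55, adjusted p = 0.0105 by limma). An09g00950 had 483, 553 and 653 FPKM at 42 h against 170, 55.4 and 75.4 FPKM at 24 h, a log2 fold change of 2.63 (SE 0.41, adjusted p = 0.00481 by limma). An14g02590 had 470, 579 and 583 FPKM at 42 h against 198, 92.4 and 41.9 FPKM at 24 h, a log2 fold change of 2.55 (SE 0.59, adjusted p = 0.0352 by limma). In both, no 42 h library overlapped with 24 h, and replicate 1 was the highest of the 24 h libraries. An07g05770 was higher at 42 h than at 24 h by 1.78 in log2 (SE 0.35, adjusted p = 0.0157 by limma). The calls of An14g02590 and An07g05770 at 42 h were lost in 8 and 6 of 20 alternatives, among them leaving out any 1 library of 42 h or replicate 2 or 3 of 24 h, which gave adjusted p of 0.0917 to 0.113 for An14g02590 and 0.0613 to 0.0743 for An07g05770 (limma).

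An11g03350, An16g05960, An16g05930, An14g03240 and An02g05750 rose by a similar amount, with log2 fold changes of 1.54 to 1.69 for 42 h against 24 h and adjusted p from 0.00148 to 0.0104 (limma, Benjamini-Hochberg). An16g05960 was at 1936 ± 126 FPKM at 42 h against 649 ± 178 at 24 h, and An16g05930 at 912 ± 99.5 FPKM against 332 ± 147 (SD, n = 3 each). An14g03240 was at 876 ± 126 FPKM at 42 h against 281 ± 106 at 24 h, and An02g05750 at 899 ± 154 FPKM against 293 ± 118. In these 5 loci, too, the 42 h libraries all lay above those of 24 h. An03g04670, named because it was called and after its values were seen, was at 383 ± 18.8 FPKM at 42 h against 122 ± 57.6 at 24 h (log2 fold change 1.75, SE 0.43, adjusted p = 0.0469 by limma), a call lost in 12 of 20 alternatives. Most of the 10 members called would not have reached the 2-fold ratio at 24 h without 24 h replicate 1. With the members kept as first chosen, the count was 10 without that library as well. It was 1 (An09g00950) without a trend in the variance, where An02g10260 had an adjusted p of 0.0716 and the other members called from 0.114 to 0.180 (limma, Benjamini-Hochberg), and 16 with a pseudocount of 10.

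Against 24 h, 10 members rose and 0 fell at 66 h, where 2.23% of all genes tested rose and 3.3% fell (7.92% and 13% of the 1844 abundant genes). The choice of members by values at 66 h above 18 h bears on this and on all counts below for 66 h against 24 h. Of these 10, 9 were also among the 10 that rose at 42 h. An03g04670 was not called here (adjusted p = 0.0712), and An13g02910, also named after its values were seen, was called only here. It was at 517 ± 83.2 FPKM at 66 h (n = 2) against 133 ± 22.2 at 24 h (n = 3), a log2 fold change of 1.95 (SE 0.42, adjusted p = 0.0211 by limma). For An02g10260 the log2 difference between 66 h and 24 h was 3.16 (SE 0.61), for An14g02590 2.87 (SE 0.66), for An09g00950 2.73 (SE 0.46) and for An07g05770 2.23 (SE 0.39), with adjusted p of 0.0123, 0.0285, 0.00644 and 0.00794 (limma, Benjamini-Hochberg). The call of An14g02590 at 66 h was lost in 9 of 20 alternatives, that of An13g02910 in 6 and that of An07g05770 in 3. An07g05770 had 16214 and 14452 FPKM at 66 h against 5792, 2627 and 2264 FPKM at 24 h, again with no overlap.

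The calls at 66 h rest on both of its libraries. Without 66 h replicate 1 only An09g00950 and An11g03350 of the 10 were called, and without 66 h replicate 2 only An07g05770 and An11g03350, in fits that take the lone 66 h library to vary like those of the other groups. The count was 4, of which 2 were among the 10, with only the libraries of these groups, 0 without a trend in the variance, and 10 (9 of them shared) without 24 h replicate 1. Rescaling the libraries to the same FPKM sum shifted the median gene by 0.11 in log2 for this comparison and median-of-ratios scaling by 0.12, each leaving the count of members at 10. The split over all genes was 194 higher and 287 lower as deposited, 222 and 230 with equal sums, and 233 and 224 with median-of-ratios scaling. For 42 h against 24 h it was 162 and 243, against 195 and 185, and 184 and 191. At an unadjusted p under 0.05, 20 members were higher at 66 h and 1 lower, against 8.25% and 10.1% of all genes tested and 20.7% and 26.5% of the 1844 genes. The sign of the difference from 24 h was positive in 45 members and negative in 14 (46.6% and 53.2% of the 1844 genes), with a median of 0.80 in log2 against -0.14 over the 1844 genes.

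Every 66 h library lay above every 24 h library in 32 members and below in 3, against 13.4% and 15.7% of all genes tested and 28.2% and 34.7% of the 1844 genes. The 3 that lay below, named for this after their values were seen, were An12g00695, An02g08640 and An15g02800. An02g08640 had 139 and 119 FPKM at 66 h against 180, 216 and 158 FPKM at 24 h, and An15g02800 had 24.0 and 0 FPKM at 66 h against 171, 111 and 38.1 FPKM at 24 h. None of the 3 was called at 66 h against 24 h (adjusted p = 0.608 for An02g08640 and 0.296 for An15g02800 by limma).

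Between 42 and 66 h, limma called 0 of the 59 genes, and 0 had an unadjusted p under 0.05. Over all genes tested the called share was 0.265% upwards and 0.161% downwards, and 2.63% and 3.92% had an unadjusted p under 0.05 in these directions. Among the 1844 abundant genes these shares were 0.0542% and 0.488% called, and 3.9% and 7.27% at the unadjusted p. The fold change was positive in 31 members and negative in 28 (49% and 50.3% of the abundant genes), with a median log2 fold change of 0.06. The 66 h mean plus 10 was within 1.5-fold of that of 42 h in 48 of the 59 genes, against 71.7% of the 1844 abundant genes. Both 66 h libraries lay above all 42 h libraries in 9 members and below them in 5, against 7.68% and 10.5% of all genes tested and 14.3% and 16.5% of the abundant genes. The SE of this difference was 0.21 for An11g03350 and 0.61 for An02g10260, and a missing call does not show that the levels were equal. In log2 the 66 h level differed from that at 42 h by -0.07 for An11g03350, by 0.14 for An02g10260 and by 0.45 for An07g05770 (SE 0.39, adjusted p = 0.963 by limma).

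**Figure D4:**
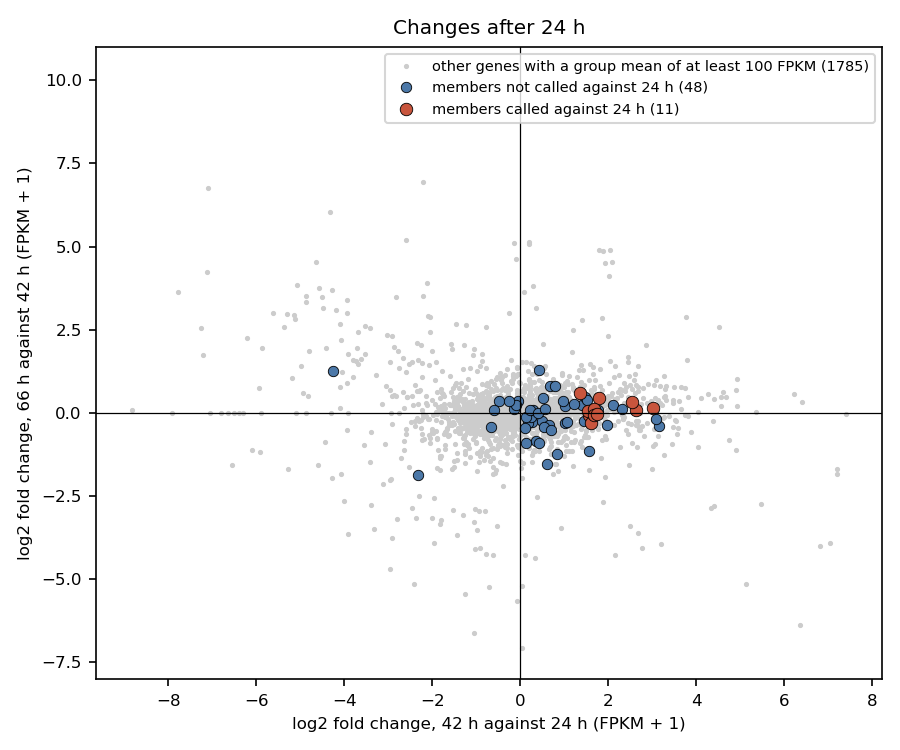
Log2 fold change of 42 h against 24 h (x axis) and of 66 h against 42 h (y axis), both on FPKM plus 1, for the 59 genes (large points) and the other 1785 genes with a group mean of at least 100 FPKM (small points). The 11 members called at 42 or 66 h against 24 h lie between 1.36 and 3.02 on the x axis and between -0.29 and 0.59 on the y axis.

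At the other end, 17 members held a plateau, with 24, 42 and 66 h means (plus 10) within 1.5-fold of each other. Among the abundant genes 22.6% did so. An12g10360 had 88.9, 123 and 71.5 FPKM at 18 h, 332, 196 and 185 FPKM at 24 h, 267, 269 and 222 FPKM at 42 h, and 252 and 215 FPKM at 66 h. Its later groups overlapped throughout and lay above all 18 h libraries.

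The 6 members with the largest values of their smallest ratio were scarce at 18 h. An07g07900, An16g05240 and An10g01040 were listed at 0 in all 18 h libraries, as were 6 of the 59 genes in all (1.36% of the abundant genes). Members were chosen to be lower at 18 h than later, which bears on this count. An16g05240 had 144, 78.1 and 80.1 FPKM at 24 h, 262, 170 and 261 FPKM at 42 h, and 277 and 266 FPKM at 66 h. An10g01040 had 130, 85.1 and 29.0 FPKM at 24 h, 147, 286 and 189 FPKM at 42 h, and 292 and 232 FPKM at 66 h, from 5, 3 and 1 reads at 24 h and 7 to 16 in the later libraries. In both genes the 66 h libraries lay above all those of 24 h. An07g07900 was uneven, at 173, 376 and 97.1 FPKM at 24 h, 285, 69.7 and 424 FPKM at 42 h, and 61.0 and 193 FPKM at 66 h, so that its later groups overlapped.

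An08g08870, An19g00210 and An14g02300 had a few reads at 18 h. An08g08870 had 37.9, 40.9 and 0 FPKM at 18 h, 454, 225 and 253 FPKM at 24 h, 532, 710 and 565 FPKM at 42 h, and 448 and 534 FPKM at 66 h. An19g00210 had 35.4, 38.3 and 0 FPKM at 18 h, 384, 209 and 257 FPKM at 24 h, 436, 545 and 652 FPKM at 42 h, and 647 and 740 FPKM at 66 h. An08g08870 and An19g00210 had similar courses up to 42 h, with ratios to 18 h (plus 10) of 8.84 and 8.48 at 24 h and of 16.88 and 16.03 at 42 h. An14g02300 stood at 194, 35.2 and 59.98 FPKM at 24 h (18, 3 and 5 reads) and at 659, 688 and 684 FPKM at 42 h, which put 42 h above 24 h by 3.17 in log2 (SE 0.89) without a call (adjusted p = 0.077 by limma).

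For 4 members the later values did not all stay above 18 h. An01g06510 was listed at 0 in 42 h replicates 1 and 2 and 66 h replicate 2, and An15g02800 in 42 h replicate 3 and 66 h replicate 2, levels that equal those at 18 h, where both were at 0 in every library. An01g06510 rested on 2, 1 and 3 reads at 24 h, and its later values above 0 were 3 reads in 42 h replicate 3 and 4 in 66 h replicate 1. An05g00150 and An18g01000 each had 1 library at 42 h below the highest 18 h library, 230 FPKM against 240 and 58.8 against 67.2. Every 42 h library lay above every 18 h library in 55 genes (9.71% of all genes tested and 24.2% of the abundant genes), and every 66 h library in 57 (14.7% and 29.7%; every 66 h library lay below in 0 members and 35.7% of the abundant genes). The rule used these means, so nothing is read from the counts.

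The 24 h libraries differed among themselves in a way that ran along with the later course. Replicate 1 was the highest 24 h library in 32 of the 59 genes, replicate 2 in 9 and replicate 3 in 18, against 36.7%, 31% and 34.4% of the abundant genes. Of the 11 members called at 42 or 66 h against 24 h, replicate 1 was the highest in 10. The rule used the 24 h mean, so a high replicate 1 could bring a gene among the 59. Most of the 11 would not have reached the 2-fold ratio at 24 h without it. This bears on these counts and on the correlation over the 59 genes given below. Outside the 59 genes, replicate 1 was the highest in 197 and the lowest in 52 of 303 abundant genes at least 2-fold above 18 h at 42 h. It was the highest in 87 and the lowest in 205 of 379 abundant genes at least 2-fold below 18 h at 42 h. Across genes, which are not independent replicates, the log2 ratio of replicate 1 to the mean of replicates 2 and 3 correlated with the log2 ratio of 42 h to 18 h at r = 0.43 over the 59 genes and r = 0.33 over the 1844, all from the same 9 libraries. Replicate 1 thus stood nearer to 42 h than the other 24 h libraries did, in both directions. What set it apart was not tested, and applying the rule without it gave 50 genes, of which 45 were among the 59.

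**Figure D5:**
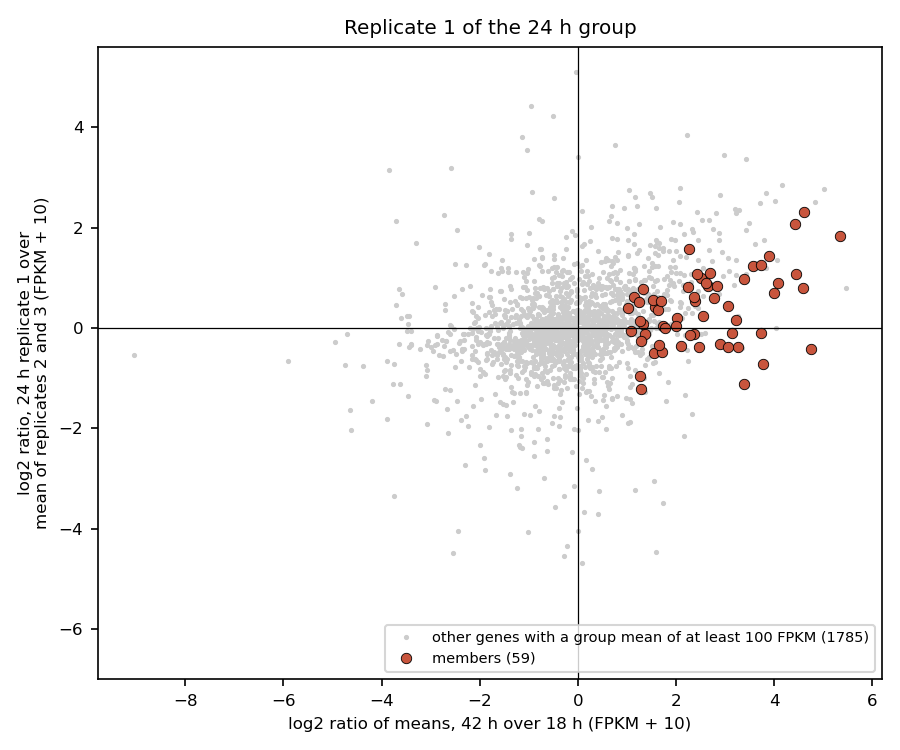
Log2 ratio of 24 h replicate 1 to the mean of 24 h replicates 2 and 3 (y axis) against the log2 ratio of the 42 h to the 18 h mean (x axis), both with 10 FPKM added, for the 59 genes (large points) and the other 1785 abundant genes (small points). The points run from lower left to upper right (r = 0.33 over all 1844 genes), and members far to the right mostly lie above 0.

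The median coefficient of variation over the 59 genes was 48.7% at 18 h, 35.5% at 24 h, then 19.8% at 42 h and finally 16.1% at 66 h (2 libraries), against 26.6%, 30.5%, 25% and 20.6% over the abundant genes. The members' spread was thus above that of the abundant genes at 18 and 24 h and below it at 42 and 66 h. Members were chosen to be lower at 18 h than later, which bears on this comparison. The reads behind them were few at the early times (a median of 6 at 18 h and 20 at 24 h), and the part of read number in this spread was not tested.

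In the gene order of the RefSeq table, 10 of the 59 genes had another member within 5 genes on either side (16.9%), and 5.3% of all genes tested and 6.31% of the abundant genes had a member that near. These 10 formed 5 pairs. An18g01590 and An18g01610 are 2 genes apart, An15g07180 and An15g07210 as well as An16g05930 and An16g05960 are 3 apart, An12g10310 and An12g10360 are 4 apart, and An14g02490 and An14g02590 are 5 apart.

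The genes between the paired loci did not all share their course. Between An15g07180 and An15g07210 lies An15g07190, whose mean was 909 FPKM at 18 h, 1612 at 24 h, then 2086 at 42 h and finally 1557 at 66 h, higher at every later time but under the 2-fold threshold at 24 and 66 h. An15g07200, also between them, was low, at 25.7 FPKM at 18 h, 51.1 FPKM at 24 h, 78.9 FPKM at 42 h and 71.6 FPKM at 66 h. Between An16g05930 and An16g05960 lies An16g05940, at 325 FPKM at 18 h, 546 at 24 h, then 589 at 42 h and finally 637 at 66 h, and An16g05950, which was listed at 0 in all libraries except 18 h replicate 1. An16g05930 and An16g05960 were both among the called members. Between An12g10310 and An12g10360, An12g10330 had lower means later, with 284 FPKM at 18 h, 264 at 24 h, then 85.0 at 42 h and finally 86.2 at 66 h. Between An14g02490 and An14g02590, An14g02540 had means of 383 FPKM at 18 h, 292 FPKM at 24 h, 793 FPKM at 42 h and 1096 FPKM at 66 h, and An14g02560 of 835, 479, 1288 and 1695 FPKM in the same order, both lower at 24 h than at 18 h and higher afterwards. The remaining genes between pairs, An18g01600 among them, had group means under 100 FPKM at every time. Over the 101 genes directly beside a member that were not members and were tested, the median log2 ratio to 18 h (plus 10) was 0.07 at 24 h, then 0.21 at 42 h and finally 0.045 at 66 h, against 0.04, -0.04 and 0 over all genes tested. Of these 101, 3 were at least 2-fold above 18 h at all later times. The share of all genes tested that did so is not given here, so nothing is read from this count.

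The threshold itself separated like genes. Just inside it, with a smallest ratio of 2.01 to 2.02, lay An12g07260 (group means of 68.2 FPKM at 18 h, 147 at 24 h, then 402 at 42 h and finally 445 at 66 h), An05g00150 (147, 435, 308 and 387 FPKM in the same order) and An18g01590 (20.2, 67.4, 120 and 51.0 FPKM). Just outside it lay An06g00620 with a smallest ratio of 1.99 (200.1, 409, 681 and 518 FPKM), An10g00370 with 1.97 (63.0, 134, 656 and 577 FPKM) and An15g01770 with 1.93 (58.1, 122, 127 and 206 FPKM). An10g00370 had a larger difference from 18 h at 42 h than any of the 3 genes just inside.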

How the data were processed

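The authors deposited FPKM values, 1 per gene and library, for 10445 genes in 11 libraries. RSEM was used, per the submitters' processing notes; version, aligner, build and annotation: not given in the sources used here. FPKM divides by gene length and mapped total, and no scaling between libraries is recorded. Libraries were grouped by the growth phase in the labels. The members, lists and tests were chosen with earlier results of these data known.

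The 8693 genes that reached an FPKM of 1 in 2 or more libraries, all 59 members among them, entered limma 3.58.1 (R 4.3.3) as log2(FPKM + 1), in 1 fit of all 11 libraries with a mean per time and a variance trend. Fold changes use that scale, so those of low genes come out too small. P-values were adjusted by Benjamini and Hochberg's method over all genes tested. On data simulated with changes at 42 h against 24 h the fit called only a minority of the changed genes. The simulation covered genes with recovered reads, with a spread and fold changes that were set, so its share need not hold for these data. A missing call does not show a lack of change. Same-numbered libraries did not deviate together (r from -0.04 to 0.02 over 15 pairs), so the numbers were not taken as pairs.

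Reads were recovered for 6857 of 7634 genes above 0 in at least 3 libraries. The step was the largest of which the low values (up to 12 reads) were whole multiples within 0.06 reads or 1.2%. Values above 12 reads were not checked, so the step of an abundant gene can be wrong. These 6857 genes held 19849 to 27520 reads per library, which leaves out the reads of genes without a step. Named genes were members with a symbol (none had one), the 10 most abundant members, the 6 with the largest smallest ratio, up to 4 called members per comparison and direction, and the 3 nearest the threshold on each side. The lists planned by product name could not be applied, since the reference table used here gives none. The reference table matched 10417 identifiers; its coordinates were not used. Summaries used pandas 2.3.3 and numpy 2.4.6; plots used matplotlib 3.10.9.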

Additional observations from a re-analysis of the deposited data

How the results depend on the processing

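Of the 20 calls made for named members against 24 h, none changed direction in the 20 alternatives, and that of An09g00950 at 42 h was kept in all of them; the other 19 were each lost in at least 1. Among 69 comparisons of 23 named genes, 12 uncalled ones changed sign in some alternative. The number of genes meeting the rule was 36 with 30 FPKM added, 111 without the condition on single libraries, 111 at a ratio of 1.5, 21 at a ratio of 3, and 50 to 89 with 1 library left out, with 89 without 24 h replicate 2 (57 of the 59 among them). Leaving out 1 library gave 7 to 13 members called at 42 h and 2 to 13 at 66 h against 24 h, and 0 for 66 h against 42 h. Without 18 h replicate 1 the 13 at 66 h included 1 fall. A pseudocount of 10 gave 16 members at 42 h, and no trend in the variance gave 1 at 42 h and 0 at 66 h. Only the libraries compared gave 4 at 66 h.

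Over all genes, 405 were called for 42 h against 24 h, 481 for 66 h against 24 h and 37 for 66 h against 42 h. Without a trend these were 132, 155 and 67. With 1 library left out they were 236 to 441, 180 to 543 and 17 to 95. For 66 h against 42 h the count was 61 with a pseudocount of 0.1, 16 with a pseudocount of 10, 16 without a filter, 16 with the filter at 10 FPKM and 0 with only the libraries compared. With the replicate number as a block it was 4, and 301 for 66 h against 24 h; members called were then 9 at 42 h and 8 at 66 h against 24 h, the numbers being shared without a sign of pairing. The causes of these shifts were not tested. Few reads at 18 and 24 h limit the precision of most members.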
